A study of Mus musculus with 15 samples.

Results

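The miR-183 cluster is a group of 3 microRNA (miRNA) genes, Mir183, Mir96 and Mir182, and its products were followed across 2 mouse pancreatic endocrine cell lines and across a cytokine treatment. Its members were taken as every assay named miR-182, miR-183 or miR-96 with any arm suffix, which gave 4 of the 584 miRNA assays on the arrays: miR-182, miR-183 and miR-96 on card A and miR-183* on card B. The cells were αTC1-6, a mouse glucagonoma line labelled as pancreatic alpha cell, and βTC1, a mouse insulinoma line labelled as pancreatic beta cell. Both are tumour lines, and each cell type is stood for by 1 line. There are 15 samples, 3 biological replicates of each of 5 conditions. They are untreated αTC1-6 at 24 h, αTC1-6 treated for 24 h with a mix of IL-1β (50 IU/ml), IFN-γ (1000 IU/ml) and TNF-α (1000 IU/ml), untreated αTC1-6 at 48 h, αTC1-6 treated for 48 h with the same cytokines, and untreated βTC1 at 24 h. Steady state stands for the untreated αTC1-6 and βTC1 of 24 h. Real-time PCR on TaqMan array cards A and B gave each well a threshold cycle (Ct), the cycle at which the signal crosses a set level. The deposited normalized value is ΔCt, by how many cycles an assay came up after miR-26a in that sample. A lower ΔCt stands for more miRNA, and 1 cycle is 1 unit on the log2 scale.

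MiRNAs are short RNAs that pair through their 5′ end, mainly the seed, with matching sites in messenger RNAs and lower the output of those messengers. A precursor hairpin can give a product from each of its arms, and the asterisk of miR-183* is the older mark of the arm thought to be the lesser product. The miR-183 cluster is conserved across animals and is best known from sensory cells, being abundant in the retina, the inner ear and sensory neurons, where changes in the miR-96 seed cause hearing loss. Its miRNAs are also found in endocrine tissues and in many tumours of epithelial origin.

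The 3 hairpins lie on the minus strand of chromosome 6 in GRCm38.p6, in the order Mir183, Mir96, Mir182 from 5′ to 3′. Mir183 is at chr6:30169668-30169737, Mir96 at chr6:30169446-30169551 and Mir182 at chr6:30165918-30165992. Mir183 and Mir96 are separated by 116 bases and Mir96 and Mir182 by 3453 bases. All 3 lie within the annotated span of the long non-coding RNA gene Mirc35hg, chr6:30158640-30174125 on the same strand. Its start site is 4388 bases from the Mir183 hairpin. The gene table gives no exons, so that exonic and intronic positions were not told apart. The flanking protein-coding genes are Ube2h, a ubiquitin-conjugating enzyme, 37163 bases away, and Nrf1, a transcription factor of nuclear genes for mitochondria, 5181 bases away. The mature sequences of the 4 assayed products, from RefSeq, are shown because their seeds tie the members to one another. Capitals mark the seed, bases 2 to 8 from the 5′ end.
mmu-miR-183 (miR-183-5p, chr6:30169711-30169732): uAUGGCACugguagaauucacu
mmu-miR-96 (miR-96-5p, chr6:30169506-30169528): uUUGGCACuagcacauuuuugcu
mmu-miR-182 (miR-182-5p, chr6:30165962-30165986): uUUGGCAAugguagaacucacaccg
mmu-miR-183* (miR-183-3p, chr6:30169672-30169693): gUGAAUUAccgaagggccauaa
The 3 major arms have near-identical seeds. MiR-182 and miR-96 share 6 of 7 seed bases and differ by A8C. MiR-96 and miR-183 also share 6 of 7 and differ by U2A. MiR-182 and miR-183 share 5 of 7, with U2A and A8C, yet over the whole ungapped length they are the closest pair, with 18 of 22 bases the same against 13 of 22 for miR-96 and miR-183 and 12 of 23 for miR-182 and miR-96. Positions are counted from 1 at the 5′ end of the first-named miRNA. In the RefSeq list of mouse miRNAs, only miR-1271-5p had the seed of miR-96, and no other miRNA had that of miR-182, miR-183 or miR-183*. The miR-183 hairpin is shown with both of its assayed arms in capitals, the first being miR-183 and the second miR-183*.
Mir183 hairpin: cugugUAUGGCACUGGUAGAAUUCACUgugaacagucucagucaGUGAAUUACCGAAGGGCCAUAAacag

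**Figure D1:**
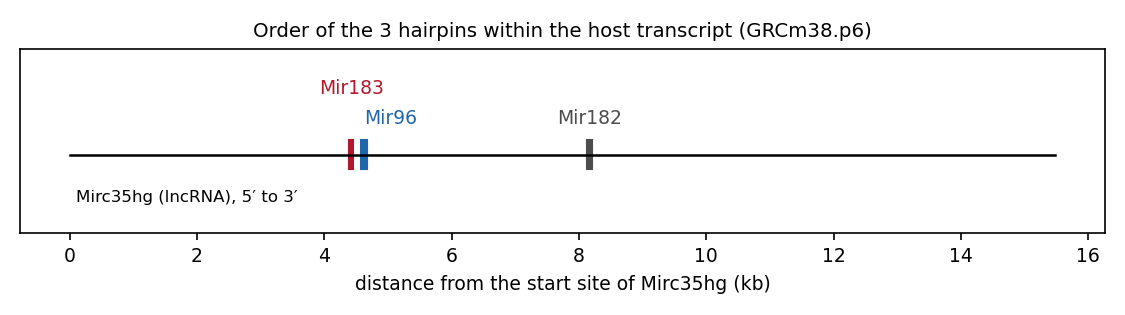
Positions of the 3 hairpins along the host transcript Mirc35hg, drawn to scale as the distance in kb from its annotated start site (GRCm38.p6). Mir183 and Mir96 sit next to each other, 116 bases apart, and Mir182 lies 3453 bases further along.

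The 4 members had a Ct in every sample where the well was not blank. Of the member wells in the normalized table, 3 were blank, those of miR-182 in αTC1-6 treated for 48 h replicate 1 and of miR-182 and miR-183 in βTC1 replicate 1. The non-normalized table holds Ct values of 21.93, 18.95 and 22.94 for them. In all 42 other card A wells of the members, the tables differed by less than 0.01 cycle. The wells of miR-183*, in duplicate, differed by 0.002 to 0.225 cycles. On card A, 214 to 276 miRNAs per sample had a Ct at 24 h and 304 to 337 at 48 h. The lines were read against marker miRNAs. MiR-375, the most abundant miRNA of islet endocrine cells, had a Ct between 13.4 and 16.0 in all 15 samples. The acinar markers miR-216a, miR-216b and miR-217 were undetermined in the 3 untreated αTC1-6 samples of 24 h, whereas all 3 markers had a Ct between 21.6 and 27.0 in all 3 βTC1 samples. In the non-normalized table each of the 3 had a Ct in 1 of these αTC1-6 samples. They thus moved with the steady state comparison, and their part in it was not tested. The leukocyte markers miR-142-3p and miR-223 had a Ct between 29.9 and 36.0 in all samples. A further leukocyte marker, miR-142-5p, had a Ct in at most 1 of 3 samples of each condition in the normalized table. In the non-normalized table miR-142-5p had a Ct in all 3 samples of each 24 h condition and in 1 of 3 at 48 h. The number of arrays limits the precision of all values.

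At steady state, the cluster was lower in αTC1-6 than in βTC1. MiR-183 was lower by 3.52 on the log2 scale, 11.4-fold, and miR-96 by 2.37, 5.18-fold, and both passed the test. MiR-182 and miR-183* had differences of -2.21 and -2.11 and did not pass. In each of the 4 assays the 3 αTC1-6 samples lay apart from the βTC1 samples.

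The assay mmu-miR-183, for the 5′ arm of the first hairpin, had ΔCt values of 6.90, 7.45 and 7.99 in untreated αTC1-6 at 24 h, with a mean of 7.45 ± 0.55 (SD, n = 3). In βTC1 it had 3.30 and 4.56, with a mean of 3.93 ± 0.89 (SD, n = 2), the well of replicate 1 being blank and left out of the fit. The lowest αTC1-6 value was more than 2 cycles above the highest βTC1 value. The log2 difference was -3.52 (SE 0.68, 95% interval -5.32 to -1.71) with an adjusted p-value of 0.0134 (limma, two-sided, Benjamini-Hochberg adjustment over all assays of the card). With the blank well filled from the non-normalized table, ΔCt in βTC1 replicate 1 is 4.56 and the adjusted p-value by limma with that table was 0.0121.

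The assay mmu-miR-96, for the middle hairpin, had ΔCt values of 7.85, 8.70 and 10.20 in αTC1-6 and of 6.60, 6.23 and 6.80 in βTC1. The means were 8.92 ± 1.19 and 6.54 ± 0.29 (SD, n = 3 each). The αTC1-6 replicates spread over more than 2 cycles and the βTC1 replicates over less than 1, without overlap. The log2 difference was -2.37 (SE 0.70, 95% interval -4.13 to -0.62), with an adjusted p-value of 0.0391 by limma. With the non-normalized table the difference was the same and the adjusted p-value was 0.0590, above the threshold.

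The assay mmu-miR-182, for the last hairpin, had ΔCt values of 1.95, 3.39 and 3.74 in αTC1-6 (3.03 ± 0.95, SD, n = 3), and 0.81 and 0.83 in βTC1 replicates 2 and 3 (0.82 ± 0.02, SD, n = 2). The groups did not overlap, and the αTC1-6 replicate nearest to βTC1 was replicate 1. The log2 difference was -2.21 (SE 0.73, 95% interval -4.14 to -0.27), with an unadjusted p-value of 0.0330 and an adjusted p-value of 0.0692 by limma. With the non-normalized table, in which the blank βTC1 well gives a ΔCt of 0.57, the difference was -2.29 and the adjusted p-value 0.0406.

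MiR-183*, the 3′ arm of the miR-183 hairpin, had ΔCt values of 4.93, 6.31 and 6.28 in αTC1-6 and of 3.47, 3.25 and 4.45 in βTC1. The means were 5.84 ± 0.79 and 3.73 ± 0.64 (SD, n = 3 each), and the nearest samples of the lines were less than 1 cycle apart. The log2 difference was -2.11 (SE 0.62, 95% interval -3.66 to -0.57). The unadjusted p-value of 0.0161 became 0.131 after adjustment over card B by limma.

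These counts were read against all assays. Of the 480 assays tested, 29.6% passed in either direction and 17.7% passed lower in αTC1-6, against 2 of 4 members lower and none higher. Groups that did not overlap were found in 45.8% of assays and, with αTC1-6 lower, in 28.5%, against 4 of 4 members. An unadjusted p-value under 0.05 was reached by 4 of 4 members and 37.9% of assays. The median log2 difference of the members was -2.29, and that of all assays was -0.52. Of the 480 assays, 94 had a lower difference than miR-183, 113 than miR-96, 117 than miR-182 and 118 than miR-183*. The members thus lay in the lower part of the assays, with many assays below each of them.

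**Figure D2:**
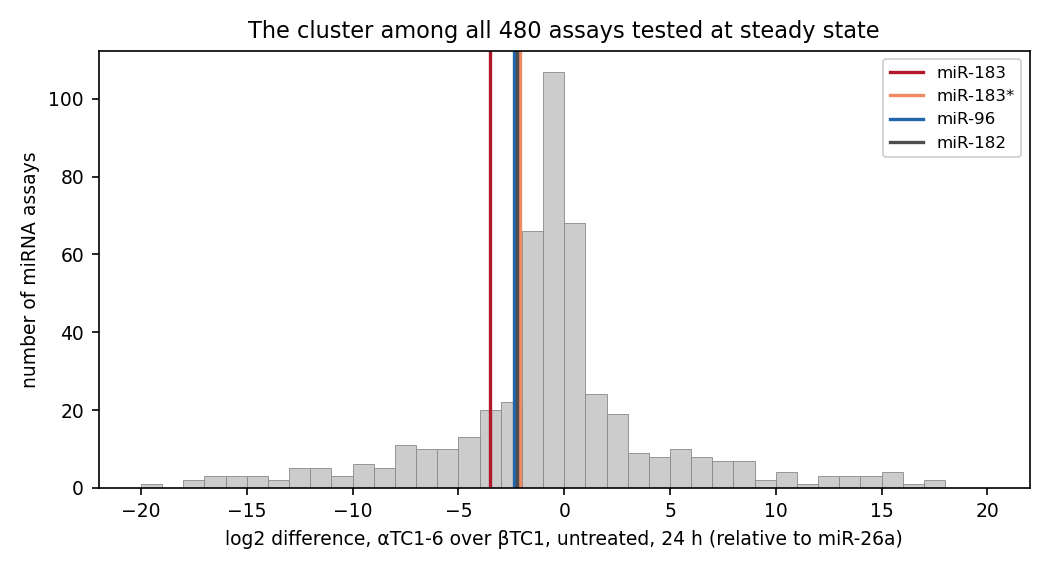
Histogram of the log2 differences (αTC1-6 over βTC1, untreated, 24 h, relative to miR-26a) of the 480 miRNA assays tested, in bins of 1 unit, with a vertical line for each cluster assay. The lines of miR-96, miR-182 and miR-183* fall within -2.37 to -2.11 and that of miR-183 at -3.52, all below the median of -0.52.

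The direction held in every setting tried, and the calls did not. Leaving out αTC1-6 replicate 2, αTC1-6 replicate 3 or βTC1 replicate 2 left none of the 4 past the threshold, with adjusted p-values for miR-183 of 0.0562, 0.0577 and 0.0670. MiR-96 was also lost without βTC1 replicate 1 and without βTC1 replicate 3, at 0.105 and 0.0786, and it was at 0.0270 without αTC1-6 replicate 1. MiR-182 passed without αTC1-6 replicate 1, at 0.0309. With Ct values that were not normalized at all, all 4 members passed, with the adjusted p-values of miR-182 and miR-183* at 0.0307 and 0.0102.

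The reference enters every ΔCt, and the Ct values themselves showed the same order. The mean Ct in untreated αTC1-6 of 24 h and in βTC1 was 25.5 and 22.4 for miR-183, 23.9 and 21.9 for miR-183*, 27.0 and 24.8 for miR-96, and 21.1 and 19.0 for miR-182, in the non-normalized table. For miR-26a the Ct ranged from 16.98 to 18.98 in αTC1-6 and from 17.5 to 18.7 in βTC1, so that its ranges overlapped. Over the αTC1-6 samples of all 4 conditions, the SD of the members' Ct was 0.46 to 0.60 cycles and that of miR-26a was 0.65. The SD of their ΔCt was 0.70 to 0.84, larger than that of the Ct of each member.

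Taking all αTC1-6 samples, treated or not, every one had a higher ΔCt than every βTC1 sample in each assay. The share of all assays that separate in this way was not counted. With the untreated αTC1-6 of 24 h alone, 28.5% of assays had αTC1-6 lower without overlap. The same βTC1 samples serve for each αTC1-6 condition, so that the conditions are not separate comparisons. The ΔCt of miR-183 ran from 6.85 to 9.01 in 12 αTC1-6 samples, against 3.30 to 4.56 in βTC1. That of miR-96 ran from 7.85 to 10.27 against 6.23 to 6.80, and that of miR-182 from 1.95 to 4.24 in 11 samples against 0.81 to 0.83. MiR-183* came closest to overlapping, at 4.48 to 7.18 against 3.25 to 4.45. Within αTC1-6 the condition means of ΔCt ran from 7.45 to 8.04 for miR-183, from 8.92 to 9.74 for miR-96, from 3.03 to 4.08 for miR-182 and from 5.32 to 6.46 for miR-183*. In each assay, neighbouring means in this order differed by less than the larger of their SDs.

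**Figure D3:**
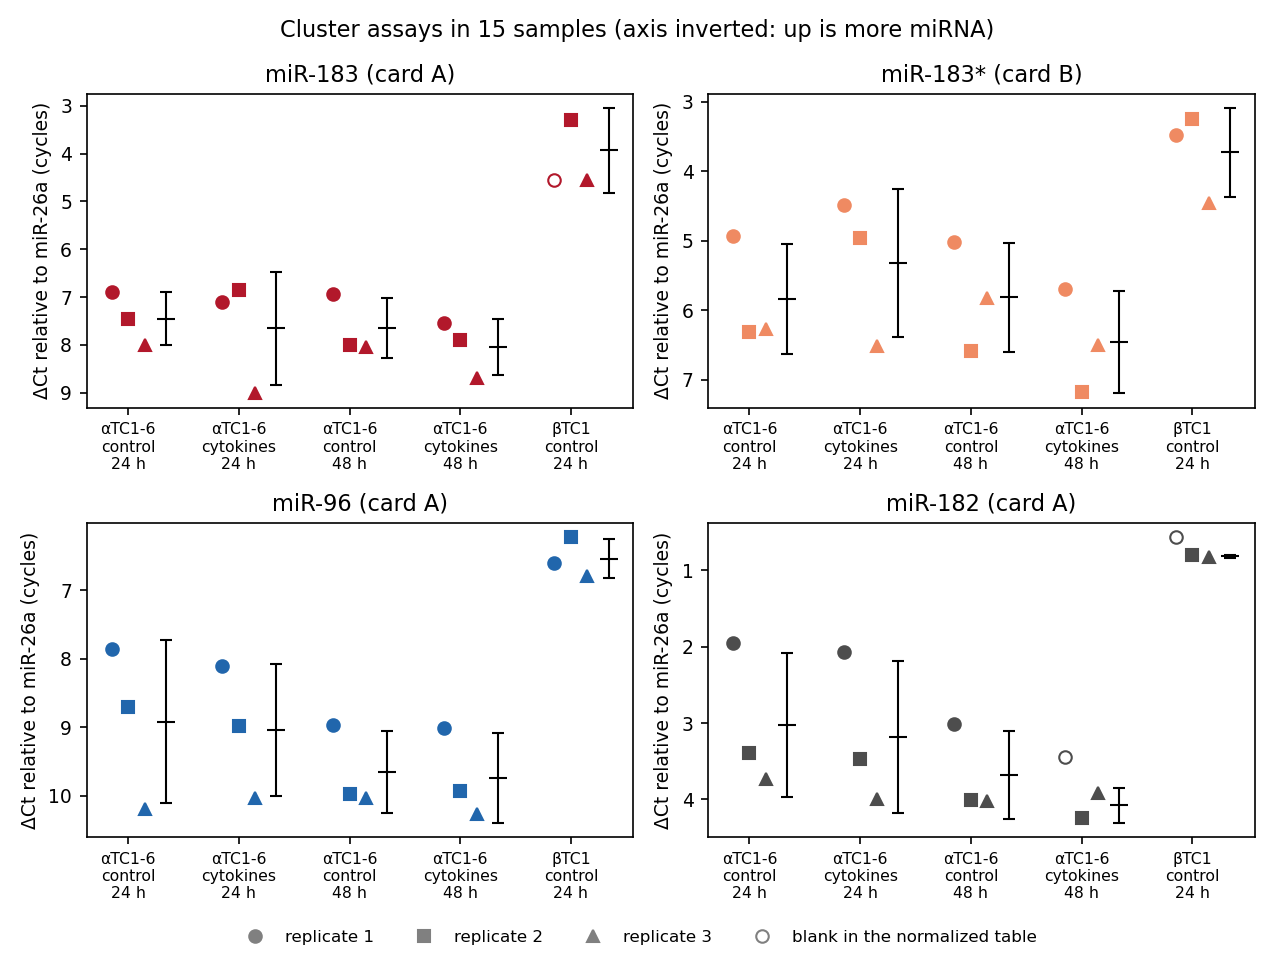
ΔCt relative to miR-26a (cycles, axis inverted so that up is more miRNA) of each cluster assay in the 15 samples. Symbols are replicates 1 to 3, bars are the mean ± SD of the deposited values, and open circles are wells that are blank in the normalized table and were drawn from the non-normalized table. In each panel βTC1 lies above the 4 αTC1-6 conditions, which overlap one another.

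At 24 h after treatment with cytokines (24 h PT), no member passed the test in αTC1-6. In treated cells miR-183 had ΔCt values of 7.10, 6.85 and 9.01 (7.65 ± 1.18, SD, n = 3), beside the untreated values above. The highest and the lowest αTC1-6 values of miR-183 were thus both in this treated group. MiR-96 had 8.10, 8.99 and 10.03 (9.04 ± 0.96) and miR-182 had 2.07, 3.48 and 4.0 (3.18 ± 1.0, SD, n = 3 each). For both, each treated replicate lay close to the untreated replicate of the same number. MiR-183* had 4.48, 4.96 and 6.52 (5.32 ± 1.06, SD, n = 3). It was the only member with a positive difference and the only one on card B, and its groups overlapped like those of the other 3. The log2 differences, treated over untreated, were -0.21 for miR-183 (95% interval -1.99 to 1.57), -0.12 for miR-96 (-2.17 to 1.92), -0.15 for miR-182 (-2.02 to 1.71) and 0.52 for miR-183* (-1.29 to 2.32). The adjusted p-values by limma lay between 0.963 and 0.987. Of the 445 assays tested, 0.225% passed, and the groups did not overlap in 13.3%, against 0 of 4 members in both counts. The median difference was -0.14 for the members and -0.15 for all assays. By card, the median of all assays was -0.27 on card A and 0.21 on card B.

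At 48 h PT the picture was the same. In untreated and treated cells, respectively, miR-183 had ΔCt values of 6.93, 8.0 and 8.03 (7.66 ± 0.63) and of 7.55, 7.89 and 8.69 (8.04 ± 0.58, SD, n = 3 each). MiR-96 had 8.97, 9.98 and 10.02 (9.66 ± 0.60) and 9.0, 9.93 and 10.27 (9.74 ± 0.66, SD, n = 3 each). The ranges of treated and untreated cells overlapped for both. MiR-182 had 3.01, 4.0 and 4.02 (3.68 ± 0.58, SD, n = 3) in untreated cells, and 4.24 and 3.91 in treated replicates 2 and 3 (4.08 ± 0.23, SD, n = 2), with replicate 1 blank and dropped from the fit. From the non-normalized table that replicate had 3.44. MiR-183* had 5.02, 6.59 and 5.83 (5.81 ± 0.78) and 5.70, 7.18 and 6.50 (6.46 ± 0.74, SD, n = 3 each). Its treated ΔCt values were each higher than the untreated value of the same replicate number, but the groups overlapped. The log2 differences were -0.39 for miR-183 (95% interval -1.68 to 0.90), -0.08 for miR-96 (-1.41 to 1.25), -0.40 for miR-182 (-1.76 to 0.96) and -0.64 for miR-183* (-2.19 to 0.90). The adjusted p-values by limma lay between 0.551 and 0.957. Of 534 assays tested 0.562% passed, and 19.3% had groups that did not overlap, against 0 of 4 members in both counts. The median was -0.39 for the members and -0.51 for all assays. By card, the median of all assays was -0.33 on card A and -0.83 on card B, the card of miR-183*.

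These small differences changed sign with the reference. When samples were centred on the median of the assays, the differences of the members at 48 h PT were 0.29 for miR-183, 0.60 for miR-96, 0.43 for miR-182 and 0.03 for miR-183*, and the median of all assays moved from -0.51 to 0.17. The intervals at 48 h PT came from fits that did not pair the replicates. They leave room for changes of 0.90 to 1.25 cycles upwards and of 1.41 to 2.19 cycles downwards.

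The untreated αTC1-6 of 48 h and of 24 h were compared to see how the members varied with time alone. The log2 differences, 48 h over 24 h, were -0.21 for miR-183 (95% interval -1.46 to 1.05), -0.74 for miR-96 (-2.55 to 1.07), -0.65 for miR-182 (-2.21 to 0.91) and 0.02 for miR-183* (-1.53 to 1.58). None passed, with adjusted p-values by limma between 0.914 and 0.999. Of 489 assays 5.93% passed and 14.7% had groups that did not overlap, against 0 of 4 members in both counts. The cytokine effect at 48 h minus that at 24 h was -0.18 for miR-183, 0.04 for miR-96, -0.25 for miR-182 and -1.16 for miR-183*. The 95% interval of miR-183* was -3.32 to 1.00. The median of all assays for this difference was -0.12 on card A and -1.01 on card B, the card of miR-183*. The adjusted p-values by limma were 0.556 for miR-183* and 0.992 for the other 3 members, and 0.210% of 477 assays passed, against 0 of 4 members. Without a block, no member had an unadjusted p-value under 0.05 in these comparisons or at 24 h PT and 48 h PT, whereas 8.79% of assays did over time, 3.98% for the difference of the effects, 4.49% at 24 h PT and 11.2% at 48 h PT. With the replicate block, which the pairing of treated and untreated samples allows, miR-183* at 48 h PT had an unadjusted p-value of 0.0337 and an adjusted p-value of 0.129 by limma. Of the 532 assays in that fit 0 passed, and the share with an unadjusted p-value under 0.05 was not counted. Without the block the median of card B at 48 h PT was -0.83, below the -0.64 of miR-183*. With median centring within each card, miR-183* was at 0.62. The comparisons within αTC1-6 share control samples with one another and, at 24 h, with the steady state comparison.

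**Figure D4:**
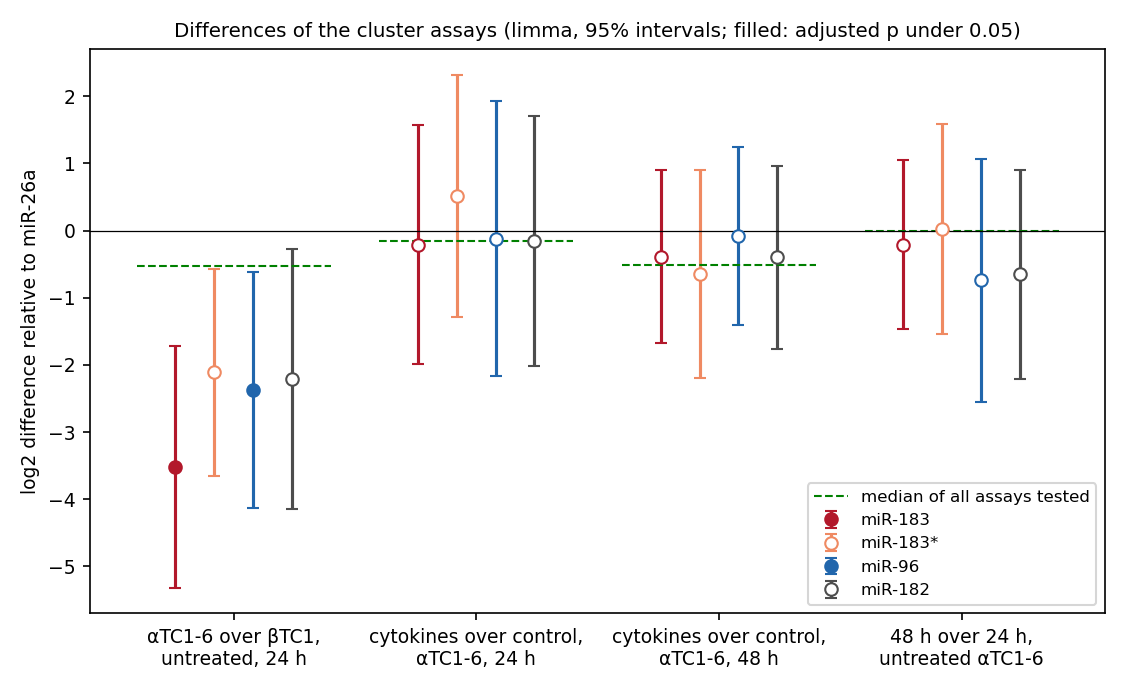
Log2 differences of the 4 cluster assays relative to miR-26a in 4 comparisons, with 95% intervals from limma. Filled points passed an adjusted p-value of 0.05 and dashed lines are the medians of all assays tested. The steady state differences lie between -3.52 and -2.11, with miR-183 and miR-96 filled, and the intervals of all other differences include 0.

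The difference in Ct between a pair of members in the same sample does not contain miR-26a, and it asks whether the members kept their distance. Because assays differ in efficiency, such a gap is not a ratio of the amounts of the miRNAs, and only its change between conditions can be read. A gap between miR-183*, on card B, and a member on card A also takes in any shift between the cards. The gap between miR-96 and miR-182 changed least. It was 5.90, 5.31 and 6.46 cycles in untreated αTC1-6 of 24 h, and 5.42 and 5.96 in βTC1. The means of 5.89 ± 0.58 (SD, n = 3) and 5.69 ± 0.38 (SD, n = 2) differed by 0.20, less than either spread. In untreated αTC1-6 of 48 h the gap was 5.95, 5.98 and 6.01 cycles.

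The gaps that involve miR-183 differed more between the lines. The gap between miR-183 and miR-183*, arms of the same hairpin, was 1.97, 1.15 and 1.72 cycles in untreated αTC1-6 of 24 h (1.61 ± 0.42, SD, n = 3). In βTC1 it was 0.06 and 0.11 (0.08 ± 0.04, SD, n = 2). These groups did not overlap, and the difference was 1.53 cycles (exact permutation test, two-sided, p = 0.2, the smallest p-value that 3 against 2 samples allow, adjusted p = 0.533). In the non-normalized table, where βTC1 replicate 1 has a value of 1.2 and the lowest αTC1-6 value is 1.25, the groups were nearly touching and did not overlap, and the difference was 1.19 (exact permutation test, adjusted p = 0.48). The gap between miR-183 and miR-182 was 4.42 in αTC1-6 and 3.11 in βTC1, a difference of 1.31, and that between miR-183 and miR-96 was -1.47 and -2.58, a difference of 1.11. Both had groups that did not overlap, with an exact permutation p of 0.2 and an adjusted p of 0.533. With the non-normalized table, the gap of miR-183 to miR-182 was 3.99 in βTC1 replicate 1, just below the lowest αTC1-6 value of 4.06. Its difference between the lines was then 1.01. In the non-normalized table the gap of miR-183 to miR-96 in βTC1 replicate 1 was -2.04, above the -2.21 of αTC1-6 replicate 3, so that the groups then overlapped and the difference was 0.93 (exact permutation test, adjusted p = 0.6). With 3 against 3 samples the smallest exact p-value is 0.1, and none of 24 tests, 6 pairs in 4 comparisons, had an adjusted p-value below 0.533.

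Within αTC1-6, among all pairs of members in the 2 cytokine comparisons and the comparison over time, 2 gaps had groups that did not overlap. The gap between miR-183* and miR-182 was 2.14 ± 0.57 in treated and 2.81 ± 0.24 in untreated cells of 24 h, and that between miR-183 and miR-182 was 3.98 ± 0.05 at 48 h and 4.42 ± 0.46 at 24 h in untreated cells (SD, n = 3 each). Both had an exact permutation p of 0.1, the smallest that 3 against 3 samples allow, and an adjusted p of 0.533. In both gaps the groups nearly touched. For miR-183* to miR-182 the highest treated value was 2.52 and the lowest untreated value 2.54. For miR-183 to miR-182 the highest value of 48 h was 4.01 and the lowest of 24 h was 4.06. The replicate numbers pair treated with untreated cells, and gaps were therefore also read within pairs. At 24 h PT the gap between miR-183 and miR-183* was larger in the treated sample of each pair, by 0.65, 0.74 and 0.78 cycles (mean 0.72 ± 0.07, SD, n = 3 pairs), although the groups overlapped. At 48 h PT it changed by -0.06, -0.70 and -0.02 cycles in replicates 1, 2 and 3 (mean -0.26 ± 0.38, SD, n = 3 pairs). The changes in replicates 1 and 3 were smaller than the largest difference between duplicate wells of miR-183*, 0.225 cycles. The gap between miR-183* and miR-96 changed by 0.64, 0.63 and 0.43 cycles at 48 h PT. That between miR-183* and miR-182 changed by -0.56, -1.43 and -0.02 cycles at 24 h PT. These are the gaps that changed in 1 direction in all 3 pairs. In each of these the exact sign-flip permutation test, two-sided, gave p = 0.25, the smallest p-value that 3 pairs allow, and an adjusted p of 0.75 over 12 tests.

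**Figure D5:**
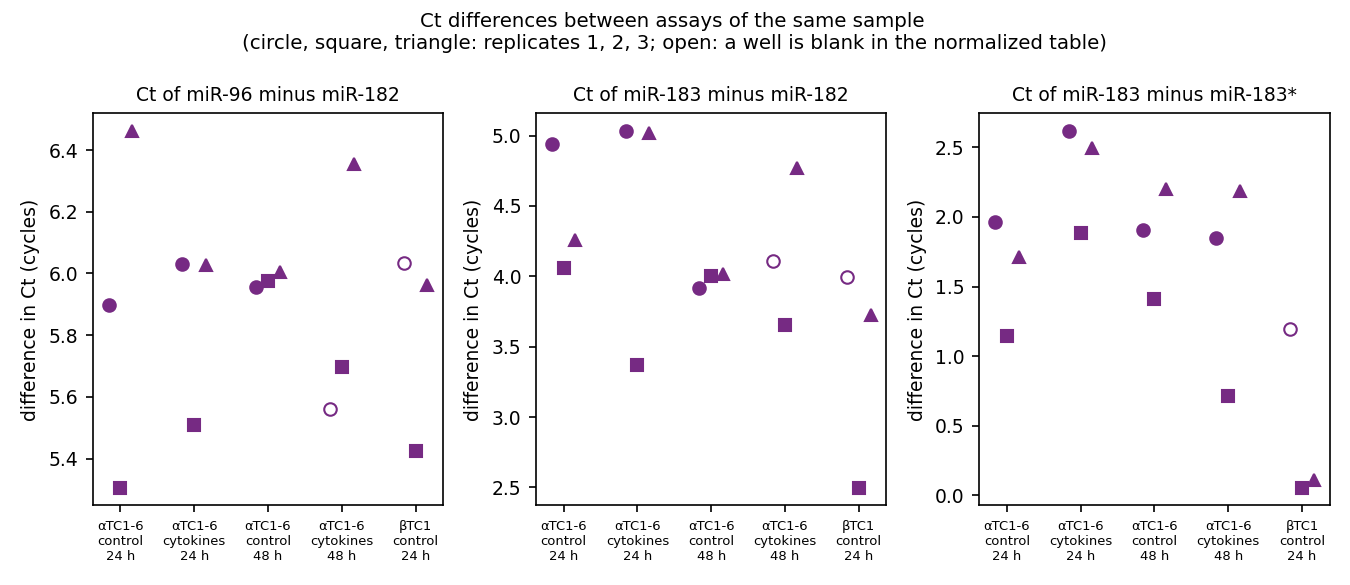
Difference in Ct (cycles) between pairs of cluster assays in the same sample, by condition. Symbols are replicates 1 to 3, and open circles use a Ct from the non-normalized table. The gap between miR-96 and miR-182 overlaps between αTC1-6 and βTC1. In βTC1 the gap between miR-183 and miR-183* is 0.06 and 0.11 in replicates 2 and 3, below all αTC1-6 samples. That of βTC1 replicate 1, 1.2 in the non-normalized table, lies within the range of the αTC1-6 samples.

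Profiles over the 15 samples were compared among the 277 assays other than the assay itself with a Ct in every sample. The measure was the root-mean-square difference of the centred profiles, on the log2 scale, and it could be had for miR-96 and miR-183*, since miR-182 and miR-183 had blank wells. The profiles nearest to miR-96 were miR-126-3p at 0.41, miR-92a at 0.46 and miR-126-5p at 0.54. MiR-183* was the fifth at 0.56, against a median of 1.28 over the candidates. Nearest to miR-183* were miR-720 at 0.31, miR-701 at 0.31 and the rat assay miR-148b-5p at 0.34, all on card B like miR-183* itself. MiR-96 ranked 11 for miR-183*, against a median of 1.09. Likeness here includes what the samples share through the miR-26a reference and the card.

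Other miRNAs known from islet and epithelial cells were read beside the cluster, in a list of 8 made of miR-375, which restrains insulin release, miR-7a and miR-7b, abundant in islets, and the miR-200 family, which keeps cells epithelial. At steady state 6 could be tested, with a median of -1.34. MiR-200b alone passed, lower in αTC1-6 (adjusted p-value of 8.1e-04 by limma), and the others had adjusted p-values of 0.171 or more. It was undetermined in the 3 αTC1-6 samples in the normalized table, but the non-normalized table holds Ct values of 26.4 to 30.0 for them, against 24.3 to 29.0 in βTC1. MiR-375 had a difference of -1.06 (95% interval -2.39 to 0.26), miR-200c of -1.61 (-3.64 to 0.43), and miR-7a of 1.24 (-0.54 to 3.03). None of 5 tested at 24 h PT and none of 8 at 48 h PT passed, with medians of 0.04 and -0.31. In untreated αTC1-6, 2 of 7 tested, miR-200a and miR-429, passed as higher at 48 h than at 24 h, where 5.52% of all assays did. Both were undetermined in the 3 samples of 24 h in the normalized table and had Ct values of 24.0 to 28.2 and 27.0 to 30.0 in the other. The members of the miR-183 cluster had no undetermined well.

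The 3 hairpins share the host gene Mirc35hg, whose annotated promoter is shown because it stands upstream of all 3. The sequence, from RefSeq, is chr6:30174076-30174375 in GRCm38.p6, minus strand, with motif matches in capitals.
Mirc35hg promoter: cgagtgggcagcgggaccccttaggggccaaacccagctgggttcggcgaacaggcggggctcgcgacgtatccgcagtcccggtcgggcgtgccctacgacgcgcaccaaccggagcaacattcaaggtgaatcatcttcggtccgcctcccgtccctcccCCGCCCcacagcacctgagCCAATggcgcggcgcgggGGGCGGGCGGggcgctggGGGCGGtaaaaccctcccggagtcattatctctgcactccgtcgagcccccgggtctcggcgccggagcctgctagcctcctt
Its 300 bases are 70.3% G and C, against a median of 52.7% over 32851 mouse promoters of the same length. They hold 35 CG pairs, more than 93% of the promoters, against a median of 7. On both strands, the letters GGGCGG, a GC box, were found at 4 positions, -88, -51, -47 and -33 from the start site, of which -51 and -47 overlap, and 35.7% of promoters hold at least 1. CCAAT was found once, at -69, and is held by 37.4% of promoters. TATAAA was not found, as in all but 13.6% of promoters. A match is a run of letters, and no binding was measured.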

How the data were processed

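TaqMan rodent array cards A and B gave the miRNA levels of 15 samples. Per the study's methods, total RNA was reverse transcribed, preamplified and run on an ABI 7900HT. The authors deposited ΔCt values, which are on a log2 scale relative to miR-26a alone, whereas the methods name multiple reference genes. The authors also deposited relative quantities, the ratio 2 to the power of the negative ΔCt, and a non-normalized table of Ct values, which were handled as a score. The deposited fold changes are the authors' own comparisons and were not used.

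Ct values were recovered by adding back the Ct of miR-26a. Undetermined wells carry a Ct of 40, duplicate wells were averaged, and blank wells were left out. limma 3.58.1 in R 4.3.3 was fitted on −ΔCt, with the samples of each comparison only. An assay entered when no fewer than 50% of its samples had a Ct under 40, while the 7 control assays and miR-26a stayed out. P-values were two-sided and adjusted by Benjamini-Hochberg separately for card A and card B, and 0.05 was the threshold. The fit was tested on simulated data. Exact permutation tests used scipy 1.17.1 under Python 3.11.15, with pandas 2.3.3 and numpy 2.4.6. Fits covered all assays, and the results given are those of the members, the 3 nearest profiles of each member with a Ct in all samples, and a list of 8 islet and epithelial miRNAs. The members and lists were chosen with earlier results of these data known. Sequences and positions come from RefSeq tables of GRCm38.p6. The older names miR-182, miR-183 and miR-96 were taken as the 5p arms and miR-183* as the 3p arm.

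The alternatives were median centring, no normalization, U6 and small nucleolar RNA controls (U6, snoRNA135, snoRNA202, snoRNA429 and U87, undetermined wells left out), no filter, a Ct in every sample, a cap of 35 on Ct, missing values for undetermined wells, p-values adjusted over both cards, a single fit of the 15 samples, the replicate block, a mean-dependent prior variance, the non-normalized table, the first duplicate well, the 48 h controls at steady state, and each replicate left out in turn. Gaps within pairs of treated and untreated samples were added after the data were seen. Replicate numbers of the labels paired treated and untreated αTC1-6, since the deviations of same-numbered samples correlated at 0.337 to 0.539 at 24 h and 0.528 to 0.621 at 48 h.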

Additional observations from a re-analysis of the deposited data

How the results depend on the processing

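At steady state all 4 members kept their direction under all alternatives and with each replicate left out, and 2 of 4 passed. With median centring or with no normalization 4 passed, with adjustment over both cards 1 did, and with a Ct in every sample, which drops miR-182 and miR-183 for their blank wells, 1 did. The count ran from 0 to 3 with single replicates left out, the lowest being without βTC1 replicate 2 or αTC1-6 replicate 2 or 3 and the highest without αTC1-6 replicate 1. With the replicate block 0 passed (adjusted p-values by limma of 0.0600 for miR-183 and 0.0582 for miR-96). Same-numbered samples of the lines correlated at 0.282, 0.140 and 0.0978, and differently numbered ones at -0.294 to 0.169. These values do not settle whether replicate numbers pair the lines. Apart from single replicates left out, miR-183 passed in 13 of 14 alternatives, miR-96 in 12 of 15, miR-182 in 7 of 14 and miR-183* in 2 of 15. These counts include median centring within each card. With single replicates left out, miR-183 passed in 3 of 6, miR-96 in 1 of 6, miR-182 in 1 of 6 and miR-183* in 0 of 6. The median of all assays was -0.79 against U6 and small nucleolar RNAs, -0.37 with no normalization and -0.084 with median centring within each card, an alternative chosen after seeing the data, in which the members were at -1.62 to -3.18. Within αTC1-6 no alternative made a member pass, the replicate block included, but small differences changed sign, and the cause was not tested. With median centring they became 0.063 for miR-182, 0.0098 for miR-183 and 0.096 for miR-96 at 24 h PT, 0.43, 0.29, 0.60 and 0.034 (miR-183*) at 48 h PT, and 0.36 for miR-182 and 0.25 for miR-183 between the cytokine effects. With median centring within each card they became 0.053 for miR-182 and 0.086 for miR-96 at 24 h PT, 0.051 for miR-182, 0.21 for miR-96 and 0.62 for miR-183* at 48 h PT, -0.38 for miR-183* over time, and 0.35, 0.30 and 0.21 for miR-182, miR-183 and miR-183* between the cytokine effects. Against U6 and small nucleolar RNAs, miR-182, miR-183 and miR-96 were at 0.11, 0.15 and 0.46 at 48 h PT, and miR-182 and miR-183 at 0.35 and 0.45 between the effects. With no normalization miR-96 was at 0.0073 at 48 h PT, and miR-182 and miR-183 at 0.34 and 0.098 between the effects. The replicate block gave 0.23 for miR-182 there. The gap of miR-96 to miR-182 at 48 h PT changed by -0.11 in the non-normalized table.

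With single replicates left out, the 24 h PT differences ran from -0.71 to 0.38 for miR-182, -0.61 to 0.47 for miR-183 and -0.76 to 0.41 for miR-96, and that of miR-96 at 48 h PT from -0.44 to 0.27. Over time, miR-183* ran from -0.37 to 0.48 and miR-183 from -0.57 to 0.068. Between the cytokine effects, miR-182 ran from -0.78 to 0.31, miR-183 from -0.86 to 0.22 and miR-96 from -0.49 to 0.68. Changes in gaps that crossed 0 ran, at steady state, from -0.61 to 0.16 (miR-183* to miR-96), -0.81 to 0.37 (miR-183* to miR-182) and -0.091 to 0.49 (miR-96 to miR-182). At 24 h PT they ran from -0.28 to 0.46 (miR-183 to miR-96), -0.23 to 0.60 (miR-183 to miR-182) and -0.32 to 0.25 (miR-96 to miR-182). Over time miR-96 to miR-182 ran from -0.20 to 0.38. At 48 h PT they ran from -0.56 to 0.18 (miR-183 to miR-183*), -0.32 to 0.79 (miR-183 to miR-182) and -0.28 to 0.37 (miR-96 to miR-182). None of these passed. With 3 samples a group, intervals of 1 to 2 cycles on either side limit what could be seen of the cytokines. These intervals come from fits without the replicate block, and no intervals within pairs are given.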

Other observations

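The decimals of the deposited Ct values were not spread evenly, and this was noticed after the values were seen. Of the card A miRNA wells with a Ct, 43.7% of 4164 had a decimal part of 0.9 or more, and on card B 28.9% of 4477 did. By condition the card A share ran from 32.9% in αTC1-6 treated for 48 h to 55.2% in those treated for 24 h. Among the members the share was 8 of 13 wells for miR-182, 8 of 15 for miR-96, 5 of 14 for miR-183 and 13 of 30 for miR-183*, and it was 6 of 15 for miR-26a. The 3 gaps between miR-96 and miR-182 in untreated αTC1-6 of 48 h, at 5.95, 5.98 and 6.01 cycles, came from wells that all had such decimals, and their SD was 0.025 cycles.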
